A study of Mus musculus with 4 samples.

Results

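The mitochondrial ribosomal protein genes, named Mrpl for the large subunit and Mrps for the small subunit, were followed in brown adipose tissue (BAT) of Sox4f/f mice and their Sox4-MKO littermates. All gene symbols of the form Mrpl or Mrps plus a number and at most a letter were taken, without those marked as pseudogenes, which gave 78 genes out of 55387 listed features. Each of the 78 had an averaged level above the limit of 1 FPKM in at least one genotype, so all of them were among the 12877 genes tested, and none was listed at 0 in any library. Their levels ran from 4.97 to 264.6 FPKM, a measure of transcript abundance that scales fragments to transcript length and library size.

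RNA was sequenced from BAT of male mice aged 15 weeks, 2 per genotype, with 1 library per mouse. Sox4f/f mice carry floxed alleles of the transcription factor gene Sox4 and no Cre, and the labels call them WT and give the cell type as adipocytes although tissue was taken. Sox4-MKO mice carry the same alleles and a Cre recombinase driven by Myf5, a gene active in the precursors of both brown fat and skeletal muscle, so that recombination is not limited to fat cells. The whole tissue was used, so fewer cells of a type and less RNA per cell cannot be told apart.

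Mitochondria keep their own ribosome, which translates the few proteins encoded by mitochondrial DNA, all of them core subunits of the oxidative phosphorylation (OXPHOS) complexes. Its RNAs are made inside the organelle, whereas every protein of it is encoded in the nucleus, made in the cytosol and imported. Many of these proteins have counterparts in bacterial ribosomes, and the others are found only in mitochondria. Brown adipocytes are packed with mitochondria, in which UCP1 turns the proton gradient into heat.

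Most Mrp genes had lower levels in the libraries labelled Sox4-MKO, and each difference was small. The summed level of the 78 genes was 4652 and 4734 FPKM in Sox4f/f mice 1 and 2 and 4017 and 3654 FPKM in the mice labelled Sox4-MKO 1 and 2. Both control sums lay above both others, with means of 4693 ± 58.2 and 3835 ± 257 FPKM (SD, n = 2) and a ratio of 0.817. The median log2 fold change of the 78 genes was -0.22, beside -0.05 over all genes tested, on the log2(FPKM + 1) scale. Single genes ran from -0.68 to 0.09, with 73 below 0 and 5 above, where 56% of all genes tested were below 0. With the sum of all FPKM made equal between libraries, as described further on, 43 of the 78 genes were below 0, beside 32.5% of all genes.

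At an unadjusted p under 0.05 in limma, 21 of the 78 genes (26.9%) had fallen in the mice labelled Sox4-MKO, where 8.28% of all genes tested were called in that direction. None was higher, where 7.95% of all genes were. With the FPKM limit raised from 1 to 5, 19 of the 78 genes (24.4%) were lower, beside 11.1% of all genes. The median of all genes was then -0.09 and that of the Mrp genes stayed at -0.22. After Benjamini-Hochberg adjustment over all genes tested, 0 of the 78 genes and 0 of all 12877 had an adjusted p under 0.05, and the smallest adjusted p of an Mrp gene was 0.196 (limma). In 49 genes (62.8%) both control libraries lay above both others, against 29.6% of all genes tested. The reverse order occurred in 0 of the 78 genes and in 21.7% of all genes. The remaining 29 overlapped. An exact permutation test of a single gene with 2 mice a group gives a p of 0.33 at the smallest, so it was not used to call genes. Without Sox4f/f mouse 1 the number of lower members was 5, beside 2.95% of all genes, and without Sox4f/f mouse 2 it was 4, beside 3.8%.

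**Figure D1:**
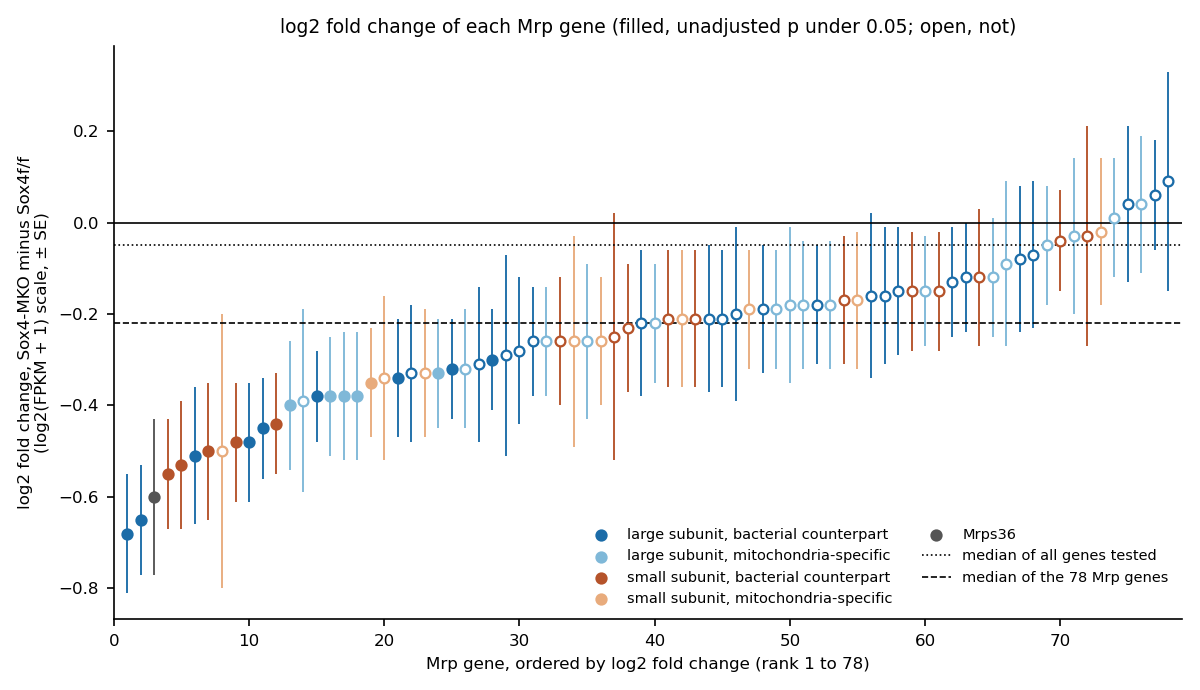
log2 fold change (Sox4-MKO minus Sox4f/f, log2(FPKM + 1) scale) of the 78 Mrp genes in rank order, with bars for the standard error. Colours give the subunit and the class, with a bacterial counterpart or mitochondria-specific, Mrps18a and Mrps18b being drawn in the latter. Filled points are the 21 genes with an unadjusted p under 0.05. Points run from -0.68 to 0.09 around a median of -0.22 (dashed), while the median of all genes tested is -0.05 (dotted).

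The size of the difference depended on how the libraries were put on a common scale. The FPKM of all features summed to 578011 and 544564 in Sox4f/f mice and to 495145 and 472062 in those labelled Sox4-MKO. As a share of these sums, the Mrp genes took 0.805% and 0.869% in the control libraries and 0.811% and 0.774% in the others, so the shares of the genotypes overlapped. When every library was brought to the same sum, an alternative chosen after the data had been seen, 3 of the 78 genes (3.85%) were lower, beside 2.55% of all genes. The Mrp median was then -0.02 and the median of all genes 0.14, a shift of 0.19. Relative to the median of all genes, the Mrp median was -0.17 as deposited, -0.15 with a common sum, -0.16 with a common sum that leaves out mitochondrially encoded genes and Ucp1, and -0.11 after quantile normalization. The Mrp median thus lay below that of all genes under each of these 4 scalings, while the number of genes called was not stable. A common sum multiplies all genes of a library by the same factor, so it could hardly alter that gap. Among these scalings, quantile normalization alone could have done so.

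**Figure D2:**
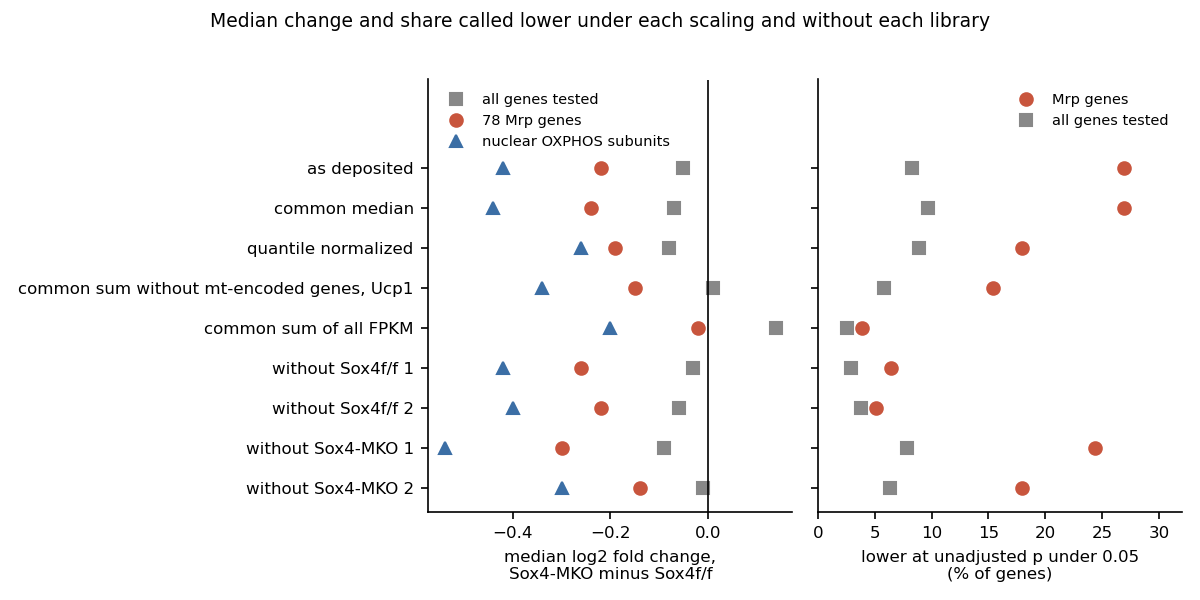
Left, the median log2 fold change (Sox4-MKO minus Sox4f/f) of all genes tested (squares), the 78 Mrp genes (circles) and nuclear OXPHOS subunit genes (triangles) under each scaling and without each library. Right, the percentage of Mrp genes and of all genes lower at an unadjusted p under 0.05. The Mrp median lies below that of all genes in all 9 settings drawn, and the share called falls from 26.9% to 3.85% with a common sum of all FPKM, 6.41% without Sox4f/f mouse 1 and 5.13% without Sox4f/f mouse 2.

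Mouse 2 labelled Sox4-MKO had the lower Mrp levels of the pair. It lay below both control libraries in 68 of the 78 genes and mouse 1 did so in 55, where the shares over all genes were 47.4% and 39.4%. The median difference from the mean of the controls was -0.30 on the log2 scale in mouse 2 and -0.14 in mouse 1. The controls differed from each other by a median of 0.08, mouse 2 being the higher. Mouse 2 labelled Sox4-MKO was the lowest library in 54 genes (69.2%), mouse 1 with that label in 20 (25.6%) and Sox4f/f mouse 1 in 4 (5.13%). Over all genes tested these shares were 34.3%, 22.9% and 22.7%.

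Facts of the libraries touch these values. Sox4, the deleted gene, had 1.98 and 1.06 FPKM in Sox4f/f mice and 0.981 and 3.06 FPKM in the mice labelled Sox4-MKO (log2 fold change 0.20 ± 0.43 SE, adjusted p 0.843, limma), so its mRNA did not separate the genotypes and all directions follow the labels. Skeletal muscle markers (Acta1, Ckm, Myh4, Mylpf, Tnnt3, Mb) summed to 173 and 623 FPKM in Sox4f/f mice and to 11870 and 2422 in the mice labelled Sox4-MKO, where they took 2.4% and 0.513% of all FPKM. None of the 6 was at 0 in any library, and 5 were higher at an unadjusted p under 0.05. Brown adipocyte markers (Ucp1, Cidea, Elovl3, Ppara, Dio2) summed to 3847 and 3838 FPKM against 1792 and 2192, with none at 0 and 3 of 5 lower. Adipocyte markers summed to 7711 to 10520 FPKM and endothelial markers to 110 to 173 FPKM, each sum overlapping between genotypes. Within these lists Lep was higher, with 11.8 and 21.5 FPKM in Sox4f/f mice and 47.4 and 38.3 in the others, and Tie1 was lower, with 29.7 and 32.1 against 19.2 and 22.4 FPKM. Macrophage markers summed to 33 and 48.8 against 75.1 and 69.1 FPKM, with 3 of 5 higher, and lymphocyte markers to 2.05 to 5.32 FPKM, with Ms4a1 at 0 in mouse 1 labelled Sox4-MKO. Without that mouse, which had the largest muscle sum, 19 of the 78 Mrp genes (24.4%) were lower, beside 7.88% of all genes, and the Mrp median was -0.30. The part of the other cell types in the Mrp difference was not tested.

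Among single genes, Mrpl34 and Mrpl4 of the large subunit had the lowest log2 fold changes. Mrpl34, on chromosome 8 of GRCm38 from 71464959 to 71465747 (plus strand), had 241 and 265 FPKM in Sox4f/f mice and 148 and 168 FPKM in those labelled Sox4-MKO. It was the second most abundant Mrp transcript over the 4 libraries, and both control values stood above both others. Its level was 37.5% lower, with a log2 fold change of -0.68 ± 0.13 (SE) and an adjusted p of 0.196 (limma). Mrpl4, whose bacterial counterpart reaches into the wall of the exit tunnel, had 103 and 96 FPKM in Sox4f/f mice and 65.8 and 60.1 FPKM in the others. On the log2 scale it changed by -0.65 ± 0.12. Its gene lies on chromosome 9 from 21002738 to 21008839 (plus strand).

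Mrps9 and Mrps5 were the lowest of the small subunit. Mrps9 (chromosome 1, 42851233 to 42905683, plus strand) had 45.9 and 49 FPKM in Sox4f/f mice and 32.9 and 31.1 in those labelled Sox4-MKO. Mrps5 (chromosome 2, 127587222 to 127606829, plus strand) had 44.2 and 46.4 against 33.7 and 28.4 FPKM. Both genotypes kept apart in each gene, with log2 fold changes of -0.55 ± 0.12 for Mrps9 and -0.53 ± 0.14 for Mrps5. The bacterial counterpart of Mrps5 lies at the entry of the mRNA channel, where it helps to keep decoding accurate.

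Mrpl34, Mrpl4 and Mrps9 were the 3 members (3.85%) lower at an unadjusted p under 0.05 in the fit as deposited and in each of 15 alternatives, which 1.53% of the genes fitted in all settings also were. Their log2 fold changes over those settings ran from -0.77 to -0.46 for Mrpl34, from -0.71 to -0.44 for Mrpl4 and from -0.70 to -0.34 for Mrps9. At the other end, 46 members were called in none of the settings.

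Mrps36 was the third lowest and stands apart by function, because its product is now counted as a part of the oxoglutarate dehydrogenase complex of the citric acid cycle rather than of the ribosome. It had 203 and 170.1 FPKM in Sox4f/f mice and 138 and 108 in those labelled Sox4-MKO, with no overlap. Its log2 fold change was -0.60 ± 0.17 with an adjusted p of 0.243 (limma). Features named as a pseudogene of Mrps36, Mrpl23, Mrpl27 and Mrpl48 are listed beside the genes themselves, so fragments may have been split between them. Without these 4 genes, 20 of the others were lower, beside 8.28% of all genes tested.

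**Figure D3:**
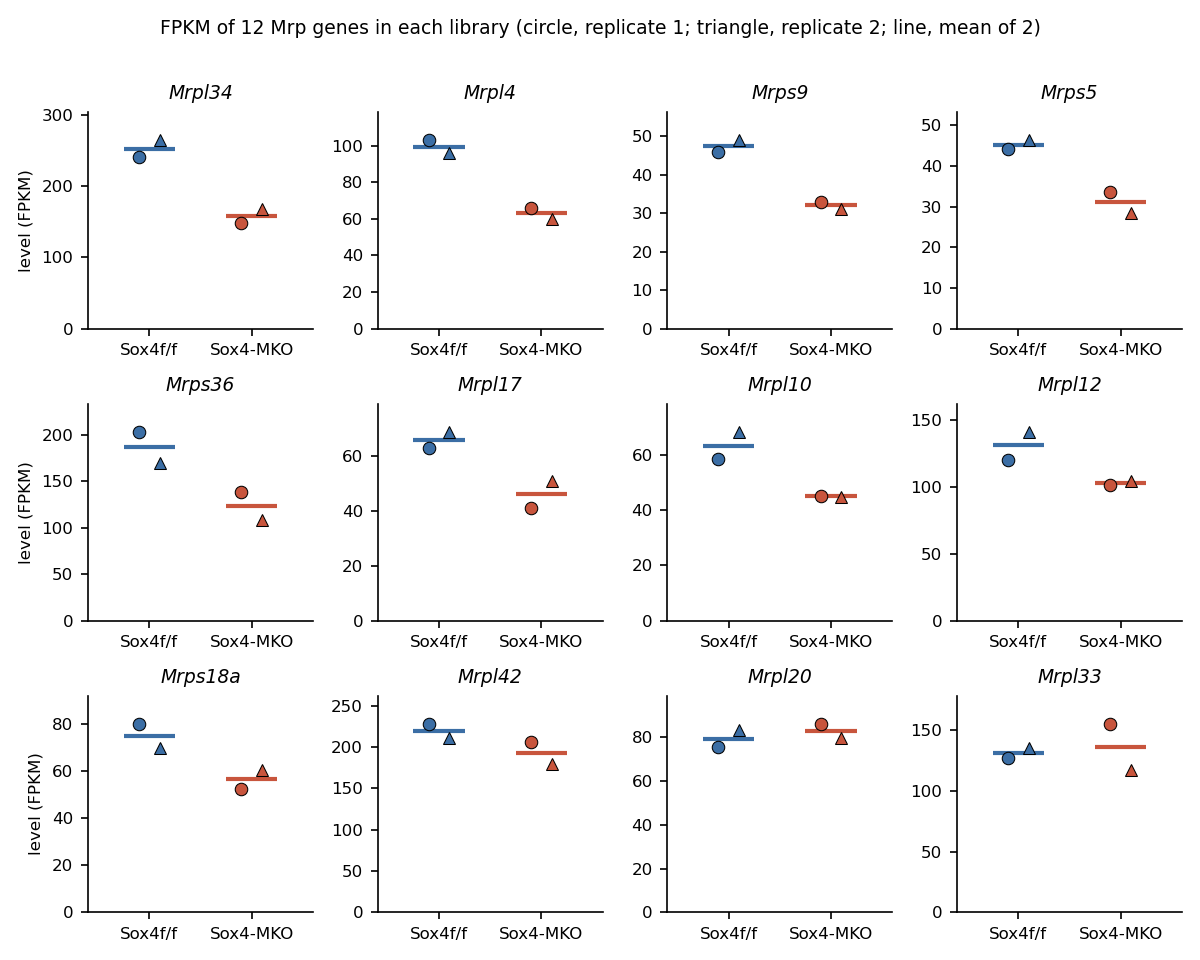
Level in FPKM (vertical axis, from 0) of 12 Mrp genes in each library, grouped by genotype on the horizontal axis, with replicate 1 as a circle, replicate 2 as a triangle and the mean as a line. From Mrpl34 to Mrpl42 both Sox4f/f values lie above both Sox4-MKO values, as in Mrpl34 with 241 and 265 against 148 and 168 FPKM, while Mrpl20 and Mrpl33 overlap.

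By subunit, 14 of 51 large-subunit genes (27.5%) and 6 of 26 small-subunit genes (23.1%) were lower, beside 8.28% of all genes tested. The medians were -0.21 and -0.24. The genotypes did not overlap in 31 (60.8%) and 17 genes (65.4%), where 29.6% of all genes were lower without overlap. All 26 small-subunit genes had a log2 fold change below 0 in the deposited scale, as had 46 of the 51 large-subunit genes and 56% of all genes tested. Of the 46 genes with a bacterial counterpart 14 (30.4%) were lower, and of the 31 classed as mitochondria-specific 6 (19.4%) were, with a median of -0.22 in each. Mrps18a and Mrps18b were counted in the second class and are among its 6 calls, although they descend from the gene of a bacterial protein. Mrps18a and Mrps30 carry a small-subunit name but their products sit in the large subunit, where they were counted. No test compared these classes, and with a common sum of all FPKM the subunit medians were -0.01 and -0.03.

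The stalk of the large subunit, where elongation factors dock, is built by the products of Mrpl10, Mrpl11, Mrpl12, Mrpl53 and Mrpl54. In all 5 genes both control libraries lay above both others, as in 62.8% of the Mrp genes and 29.6% of all genes tested. At an unadjusted p under 0.05, 2 of the 5 (40%) were lower, beside 26.9% of the Mrp genes and 8.28% of all genes. Mrpl12, whose product also binds the mitochondrial RNA polymerase, had 120.4 and 141 FPKM in Sox4f/f mice and 101 and 104 in those labelled Sox4-MKO, a log2 fold change of -0.34 ± 0.13. Mrpl10, the base on which the Mrpl12 copies are mounted, had 58.3 and 68.2 against 45.1 and 44.8 FPKM, a change of -0.48 ± 0.13 on the same scale. The call for Mrpl10 was lost in 3 of the 15 alternatives and that for Mrpl12 in 11. Mrpl53 (-0.32 ± 0.13), Mrpl54 (-0.15 ± 0.12) and Mrpl11 (-0.12 ± 0.12) were not called. With a common sum of all FPKM, Mrpl11 and Mrpl54 turned to 0.08 and 0.06.

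Around the exit of the peptide tunnel, where new proteins leave for the inner membrane, 2 of 7 genes (28.6%) were lower. That share was 26.9% over all Mrp genes and 8.28% over all genes tested. Mrpl17 had 63.1 and 68.9 FPKM in Sox4f/f mice and 41.3 and 50.9 in those labelled Sox4-MKO, with a log2 fold change of -0.51 ± 0.15. Mrpl24 had 74.3 and 79 against 61.7 and 62.7 FPKM and a change of -0.30 ± 0.11. Neither pair of genotypes overlapped, and the calls were lost in 6 and 10 of the 15 alternatives. Mrpl45, whose product ties the ribosome to the membrane, had 19.5 and 22.7 against 19.4 and 17.6 FPKM (-0.18 ± 0.14). Mrpl44 (-0.18), Mrpl23 (-0.21) and Mrpl22 (-0.08) were not called. Mrpl47 had the highest log2 fold change of all members, 0.09 ± 0.24, from 7.84 and 7.94 against 6.71 and 10.7 FPKM, so its MKO-labelled libraries stood on either side of the controls. Oxa1l, the insertase that takes up the new proteins at this exit, had 59.6 and 55.6 against 41.7 and 39 FPKM, with a log2 fold change of -0.50 ± 0.12 and an adjusted p of 0.214 (limma).

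In the central protuberance, which contacts the small subunit and the transfer RNAs, 1 of 6 genes (16.7%) was lower, beside 8.28% of all genes. That gene was Mrpl40, with 21.1 and 22.5 FPKM in Sox4f/f mice and 16.9 and 16.1 in those labelled Sox4-MKO (-0.38 ± 0.13), and its call was lost in 7 of the 15 alternatives, among them each of those that left out a mouse. Mrpl38 had 68.8 and 62.2 against 54.9 and 53.8 FPKM and was not called (-0.26 ± 0.12). Mrpl18 (-0.21), Mrpl48 (-0.09), Mrpl27 (-0.07) and Mrpl46 (-0.03) overlapped between genotypes. The list median of -0.15 lay between the median of all Mrp genes and that of all genes tested.

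Mrps18a, Mrps18b and Mrps18c descend from the gene of 1 bacterial protein and take different places in the ribosome. In all 3 both control libraries lay above both others, as in 62.8% of the Mrp genes and 29.6% of all genes tested. Of the 3, 2 (66.7%) were lower at an unadjusted p under 0.05, beside 26.9% of the Mrp genes and 8.28% of all genes. Mrps18a had 79.9 and 69.5 FPKM in Sox4f/f mice and 52.3 and 60.4 in those labelled Sox4-MKO (-0.40 ± 0.14). Mrps18b had 40.7 and 41.8 against 31 and 33.3 FPKM (-0.35 ± 0.12). Mrps18c, the one in the bacterial position, had 52.5 and 45 against 43.1 and 39.5 FPKM (-0.23 ± 0.14) and was not called. The calls for Mrps18a and Mrps18b were lost in 8 and 7 of the 15 alternatives.

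Mrps12, a core protein of the decoding centre, had 61.1 and 73.6 FPKM in Sox4f/f mice and 58.5 and 53.4 in those labelled Sox4-MKO (-0.26 ± 0.14, not called). Mrps30 had 16 and 15.5 against 15.5 and 14.9 FPKM (-0.05 ± 0.13) and overlapped. The other members lower at an unadjusted p, named because they complete that count, were Mrpl3, Mrpl9, Mrpl30, Mrpl39, Mrpl41, Mrpl57, Mrps16, Mrps21 and Mrps24. Their log2 fold changes ran from -0.50 in Mrps24 to -0.32 in Mrpl3.

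Since FPKM is scaled to transcript length, levels can be set side by side. Mrpl42, Mrpl34 and Mrpl30 had the highest mean levels over the 4 libraries, 206, 206 and 169 FPKM. Mrpl42 had 228 and 210.5 FPKM in Sox4f/f mice and 206 and 179.5 in those labelled Sox4-MKO (-0.19 ± 0.13). Mrpl30 had 193 and 189.8 against 147 and 147 FPKM and was lower, with a log2 fold change of -0.38 ± 0.10. The lowest levels were those of Mrpl19, Mrpl47 and Mrpl1, with means of 5.91, 8.29 and 11.5 FPKM. The step from Mrpl42 to Mrpl34 lay within their spread over libraries, and so did that from Mrpl19 to Mrpl47, whose ranges of 4.97 to 7.19 and 6.71 to 10.7 FPKM overlapped. The order of the genes by level was close to the same in both genotypes (Pearson r of log2 levels 0.988 over 78 genes, against 0.926 over all genes tested, both from the same libraries).

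Highly expressed members had the lower log2 fold changes. Among the 26 genes with the highest control levels (64.5 to 253 FPKM) the median was -0.31 and 12 were lower. Among the middle 26 it was -0.21 with 7, and among the lowest 26 (6.41 to 32.5 FPKM) it was -0.18 with 2. Over all genes tested 8.28% were lower, and 11.1% with the FPKM limit raised to 5. The median level of all genes tested was 8.36 to 9.13 FPKM per library. These shares are therefore not those of genes of like level, which were not computed. Spearman's rho of control level against fold change was -0.37 over the 78 genes and -0.36 over all genes tested, a description across genes that share the control libraries. The estimated depth was about 12000000 to 15900000 fragments per library. With the longest annotated transcript taken as the length of each gene, the members had an estimated 255 to 10003 fragments each. The counting error was then 6.26% to 1%. Where shorter transcripts prevail, the fragments are fewer and the error is larger.

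The 5 members above 0 were Mrpl47, Mrpl20, Mrpl50, Mrpl33 and Mrpl43, and the genotypes overlapped in each. Mrpl20 had 75.6 and 83 FPKM in Sox4f/f mice and 86 and 79.7 in those labelled Sox4-MKO (0.06 ± 0.12). Mrpl33 had 127 and 135 against 155 and 117 FPKM (0.04 ± 0.17). Mrpl50 had 16 and 19.3 against 17.9 and 18.4 FPKM (0.04 ± 0.15), and Mrpl43 had 25.1 and 25.8 against 27.1 and 24.4 FPKM (0.01 ± 0.13). Their products all belong to the large subunit.

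The genes lie on 17 chromosomes, with 11 of them on chromosome 11. In the GENCODE M21 annotation, 19 members (24.4%) had a protein-coding gene that starts on the opposite strand no more than 1000 bases upstream. An overlap of up to 100 bases at the starts was allowed, and pairs with a longer overlap were not counted. By the same rule, 11% of all tested protein-coding genes had such a partner. Of the 17 such partners that were tested, 4 were lower at an unadjusted p under 0.05 and 0 were higher. Over all genes tested the shares were 8.28% and 7.95%. The 4 were Klc4, Ndufs6, Apba3 and Eme2, named after their values were seen. The median log2 fold change was -0.18 over the partners and -0.23 over the members beside them. Ndufs6, a complex I subunit that shares its start region with Mrpl36, had 352 and 334 FPKM in Sox4f/f mice and 277 and 231 in those labelled Sox4-MKO. Mrpl36, the neighbour, had 46.7 and 52.7 against 45.7 and 41.9 FPKM and was not called. Their transcripts overlap at the starts, and whether fragments were counted by strand is not given in the sources used here.

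Promoters of mitochondrial protein genes often hold binding motifs of GABP, an ETS family factor also known as NRF2, of NRF1 and of YY1. Promoter sequences of 300 bases around the start, most of them before it, from RefSeq on GRCm38.p6 matched 69 of the 78 members by symbol. Those without an entry were Mrpl4, Mrpl13, Mrpl15, Mrpl19, Mrpl38, Mrpl54, Mrps28, Mrps34 and Mrps35. The motif CCGGAAG of ETS factors, read on both strands, occurred in 24 of the 69 (34.8%), in 18.6% of the promoters of all genes tested and in 9.16% of all promoters in the set. The NRF1 motif GCATGCGC occurred in 8 members (11.6%), in 5.48% of tested genes and in 2.8% of all promoters. The YY1 motif AAGATGGCG occurred in 8 members as well, in 3.33% of tested genes and in 1.49% of all. The E-box CACGTG occurred in 5 members (7.25%), in 10.4% of tested genes and in 7.22% of all. At least one of the ETS, NRF1 and YY1 motifs was present in 34 members. These matches are letters in a window and not evidence of binding.

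Promoters of 4 members are shown, Mrpl34 and Mrpl17 among the lowest by fold change, Mrps18a as a called member with a YY1 match, and Mrpl33 as a member above 0 that also holds motifs. Capitals mark the motif matches. Mrpl34 (chr8:71464676-71464975, plus strand) holds the ETS motif, Mrpl17 (chr7:105811038-105811337, minus strand) and Mrpl33 (chr5:31613701-31614000, plus strand) hold the ETS and NRF1 motifs, and Mrps18a (chr17:46110754-46111053, plus strand) holds the ETS and YY1 motifs.
Mrpl34: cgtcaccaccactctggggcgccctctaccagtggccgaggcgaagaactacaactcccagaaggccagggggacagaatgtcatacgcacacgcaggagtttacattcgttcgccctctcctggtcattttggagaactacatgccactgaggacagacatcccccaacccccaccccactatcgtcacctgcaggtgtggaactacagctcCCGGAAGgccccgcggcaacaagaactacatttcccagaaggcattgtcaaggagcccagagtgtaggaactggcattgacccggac
Mrpl17: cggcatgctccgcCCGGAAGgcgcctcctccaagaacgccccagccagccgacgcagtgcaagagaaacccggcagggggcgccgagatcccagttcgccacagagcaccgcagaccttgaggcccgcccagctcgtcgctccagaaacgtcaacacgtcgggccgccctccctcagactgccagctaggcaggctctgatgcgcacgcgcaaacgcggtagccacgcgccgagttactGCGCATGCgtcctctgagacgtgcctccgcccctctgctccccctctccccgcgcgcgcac
Mrps18a: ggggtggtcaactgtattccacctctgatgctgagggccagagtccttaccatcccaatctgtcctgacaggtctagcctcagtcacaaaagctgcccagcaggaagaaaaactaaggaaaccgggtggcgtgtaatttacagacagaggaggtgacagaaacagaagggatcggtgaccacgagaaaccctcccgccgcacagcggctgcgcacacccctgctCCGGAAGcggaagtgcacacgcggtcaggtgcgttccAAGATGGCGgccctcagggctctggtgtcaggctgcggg
Mrpl33: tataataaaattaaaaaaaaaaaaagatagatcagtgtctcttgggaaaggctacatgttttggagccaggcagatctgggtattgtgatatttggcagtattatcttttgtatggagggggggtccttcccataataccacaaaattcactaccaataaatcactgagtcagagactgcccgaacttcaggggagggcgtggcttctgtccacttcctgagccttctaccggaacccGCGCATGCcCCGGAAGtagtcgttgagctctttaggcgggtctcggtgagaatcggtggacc

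Members with and without each motif were set side by side, with no test. The 24 members with the ETS motif had a median log2 fold change of -0.26 and 7 lower calls, and the 45 without it a median of -0.21 and 13 calls. For NRF1 the medians were -0.34 with 5 calls in 8 genes and -0.21 with 15 calls in 61, and for YY1 they were -0.20 with 2 calls and -0.25 with 18. Of the 5 members with the E-box, 0 were called. These counts stand beside 26.9% of all Mrp genes and 8.28% of all genes tested. Mrpl17 and Mrpl33 show the spread, since both hold the ETS and NRF1 motifs while their log2 fold changes were -0.51 and 0.04. Of the genes of the factors themselves, 3 overlapped between genotypes, with Nrf1 at 6.43 and 7.04 against 4.27 and 7.69 FPKM, Gabpa at 16.3 and 18.7 against 14.3 and 16.4 FPKM, and Yy1 at 13.7 and 11.1 against 12.1 and 12 FPKM. Gabpb1, which encodes the other subunit of GABP, had 5.55 and 3.91 FPKM in Sox4f/f mice and 5.57 and 6.67 in those labelled Sox4-MKO, without overlap and not called (0.32 ± 0.22). In a list of 9 regulators of mitochondrial genes, 3 (33.3%) were lower at an unadjusted p under 0.05 and 0 were higher. Over all genes tested the shares were 8.28% and 7.95%. The 3 were Esrra (-0.52), Ppargc1a (-1.21) and Ppargc1b (-1.12), named after their values were seen. Ppargc1a, a coactivator of mitochondrial genes, had 48.2 and 22.4 FPKM in Sox4f/f mice and 13.2 and 14.2 in the others, and its log2 fold change was -0.67 without Sox4f/f mouse 1. The call for Ppargc1a was lost without either mouse labelled Sox4-MKO. That for Esrra was lost without either control and with a common sum of all FPKM.

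Other genes of mitochondrial translation were read from 5 lists, of which 68 of 69 genes were tested. In all, 11 of the 68 (16.2%) were lower at an unadjusted p under 0.05 and 0 were higher, where 8.28% of all genes tested were lower, and the median log2 fold change was -0.21. With a common sum of all FPKM, 3 (4.41%) were lower, beside 2.55% of all genes. Without Sox4f/f mouse 1 the number was 3 (4.41%), beside 2.95% of all genes. Without Sox4f/f mouse 2 it was 2 (2.94%), beside a larger share of 3.8%. Without mouse 2 labelled Sox4-MKO it was 6 (8.82%), beside 6.33%. The 5 ribosomal subunits with other names (Dap3, Ptcd3, Aurkaip1, Chchd1 and Gadd45gip1) gave 0 calls and fold changes from -0.22 to -0.06. Aurkaip1, of the small subunit, had 82.9 and 82.3 FPKM in Sox4f/f mice and 73.8 and 68 in those labelled Sox4-MKO. Dap3, a GTP-binding protein of the small subunit, had 44.2 and 42.3 against 45.1 and 38.1 FPKM and overlapped.

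Among assembly factors, which modify and fold the ribosomal RNAs, 3 of 25 (12%) were lower, near the 8.28% of all genes tested. Rbfa, a maturation factor of the small subunit and the lowest gene of these lists, had 41.7 and 40.4 FPKM in Sox4f/f mice and 26.6 and 24.2 in those labelled Sox4-MKO, a log2 fold change of -0.67 ± 0.12 with an adjusted p of 0.196 (limma). Tfb1m, which methylates the small ribosomal RNA, did not separate the genotypes (-0.02 ± 0.17). Trub2 (0.31 ± 0.26) and Fastkd2 (0.25 ± 0.15) were among the highest of the lists and were not called.

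Among translation factors 3 of 13 (23.1%) were lower, beside 8.28% of all genes tested. They were Tsfm, Oxa1l and Mtif3, the last named after its value was seen. Tsfm recharges the elongation factor Tufm with GTP and had 32.6 and 37.1 FPKM in Sox4f/f mice and 23.4 and 22.4 in those labelled Sox4-MKO (-0.58 ± 0.13). Tufm itself had 116 and 124 against 103 and 87.6 FPKM (-0.33 ± 0.13) and Gfm1, the translocase, 65.5 and 65.2 against 56.6 and 50.9 FPKM (-0.28 ± 0.12), with no overlap and no call in either. The initiation factor Mtif2 had 22.9 and 22.7 against 23.4 and 23.2 FPKM (0.03 ± 0.12). Mtrf1l, a release factor, had the highest fold change of the lists, 0.48 ± 0.22, from 2.33 and 2.35 against 3.04 and 4.39 FPKM, and was not called.

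Of the 17 mitochondrial tRNA synthetase genes 3 (17.6%) were lower, and of 8 genes of mitochondrial transcription and RNA stability 2 (25%) were. That share was 8.28% over all genes tested. Polrmt, the mitochondrial RNA polymerase, had 14.5 and 17.2 FPKM in Sox4f/f mice and 9.96 and 11.2 in those labelled Sox4-MKO (-0.54 ± 0.16). Lrpprc, which stabilises mitochondrial mRNAs, had 40.3 and 36.6 against 29.2 and 30.2 FPKM (-0.36 ± 0.12). Tfam, which packs mitochondrial DNA, overlapped with 17.1 and 15.1 against 15.5 and 19.4 FPKM (0.10 ± 0.17). The ribosomal RNAs themselves, named after their values were seen, had 10194 and 10376 FPKM (mt-Rnr1) and 12079 and 12709 FPKM (mt-Rnr2) in Sox4f/f mice. In mouse 1 labelled Sox4-MKO they had 3823 and 5225 FPKM and in mouse 2 they had 8992 and 11800 FPKM, and neither was called. Of the libraries labelled Sox4-MKO, the one with the lower ribosomal RNA values was not the one with the lower Mrp levels. The labels describe an mRNA library, and how far these values follow the amount of ribosomal RNA was not tested.

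The Mrp genes were read beside 2 other gene lists in the same libraries. Of 73 nuclear OXPHOS subunit genes, 43 (58.9%) were lower and 2 higher, and their median log2 fold change was -0.42. Of 76 cytosolic ribosomal protein genes, 7 (9.21%) were lower, a share near the 8.28% of all genes tested, and 0 were higher, with a median of -0.17. Both control libraries lay above both others in 67.1% of the cytosolic and in 62.8% of the Mrp genes. The count of lower OXPHOS genes was 3 without Sox4f/f mouse 1, 5 without Sox4f/f mouse 2, 25 without mouse 2 labelled Sox4-MKO, 26 with a replicate block, 20 after quantile normalization and 9 with a common sum of all FPKM. That of cytosolic ribosomal genes was 0 without either control, with the block and in both of those scalings, and 3 without mouse 1 labelled Sox4-MKO. Over all genes tested, 7.28% were lower with the block, 8.88% after quantile normalization and 2.55% with a common sum of all FPKM. In the lists of both kinds of ribosome the lowest library differed. Mouse 2 labelled Sox4-MKO was lowest in 54 of 78 Mrp genes (69.2%), beside 34.3% of all genes tested. Mouse 1 with that label was lowest in 43 of 76 cytosolic ones (56.6%), beside 22.9%. Relative to the median of all genes the medians were -0.36, -0.17 and -0.12 for OXPHOS, Mrp and cytosolic ribosomal genes, and -0.18, -0.11 and 0.01 after quantile normalization. The order of the Mrp and cytosolic lists was reversed without mouse 2 labelled Sox4-MKO, where the Mrp median was -0.14 and the cytosolic one -0.18. Without Sox4f/f mouse 2 the order was kept but the medians were nearly equal, at -0.22 and -0.21. With a common sum of all FPKM the median of the cytosolic ribosomal genes turned to 0.05, while the others stayed below 0. No test compared the lists with each other.

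**Figure D4:**
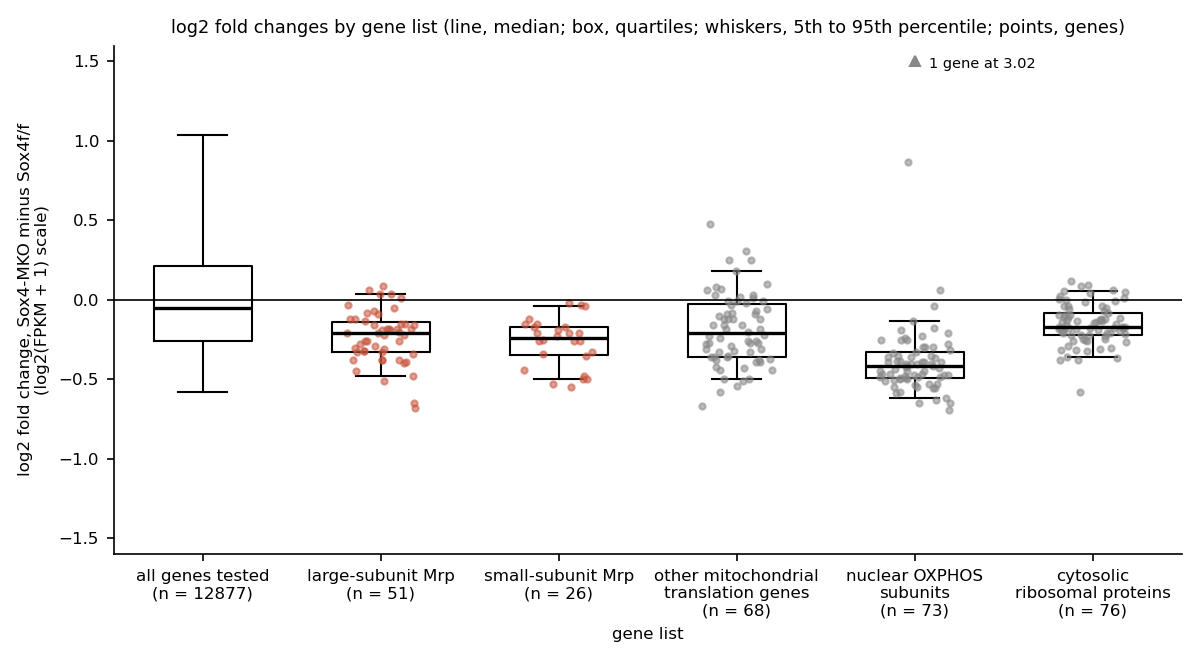
log2 fold change (Sox4-MKO minus Sox4f/f, log2(FPKM + 1) scale) of all genes tested and of 5 gene lists. Lines are medians, boxes quartiles, whiskers the 5th to 95th percentile and points single genes, with a triangle for an OXPHOS gene at 3.02 beyond the axis. The medians are -0.05 for all genes, -0.21 and -0.24 for the large and small mitochondrial subunits, -0.21 for other mitochondrial translation genes, -0.42 for OXPHOS genes and -0.17 for cytosolic ribosomal genes, the last of which turns to 0.05 with a common sum of all FPKM.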

How the data were processed

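RNA of whole BAT was sequenced with 1 library per mouse. The authors deposited 1 FPKM value per gene and library. The submitters' processing notes name Cufflinks 2.1.1, Cuffdiff and mm10, without their roles. The aligner and the annotation are not given in the sources used here. The labels describe a column RNA kit with a stranded mRNA library, whereas the methods describe TRIzol and TruSeq. Genotypes and replicate numbers were taken from the sample titles. FPKM are not counts, so no count test was made.

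The test covered genes whose mean FPKM exceeded 1 in either genotype and was made with limma 3.58.1 in R 4.3.3 on log2(FPKM + 1), with eBayes and a trended prior. That scale understates the change of low genes. Calls rest on an unadjusted p under 0.05, two-sided, with Benjamini-Hochberg adjusted values beside them. The code was tested on artificial data in which 200 of 12877 genes were changed by 1 on the log2 scale. An unadjusted p under 0.05 in limma recovered 87% of them and called 4.85% of the unchanged genes. An adjusted p under 0.05 recovered 0% of them, so the lack of adjusted calls does not show a lack of change. The artificial values were drawn from the fitted model, and a change of 1 is larger than that of any Mrp gene. The share of genes truly changed in the mice is not known, so these rates need not hold for the Mrp genes. The p-values and standard errors rest only on spread between these 4 mice. That spread was moderated by eBayes toward that of genes of like level, so a standard error is not the spread of its gene alone. The Mrp genes, the other gene lists and the tests were chosen with earlier results of these data known.

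By rule, genes named with values are the 5 lowest and 5 highest Mrp genes by log2 fold change, the 3 highest and 3 lowest by mean level, the members of 4 structural lists, Mrps12, Mrps30 and Mrps36. For the pathway they are the 3 lowest and 3 highest, the other-named subunits, Tufm, Gfm1, Tsfm, Mtif2, Oxa1l, Lrpprc, Tfam, Polrmt, Tfb1m and Sox4. Outside this rule, and chosen after values were seen, are Mrps24, Mrpl3 and the other called members, Mrpl36, Ndufs6, the regulators and the mitochondrial ribosomal RNAs. Marker genes are named by their lists. Coordinates are those of GENCODE M21 (GRCm38) by symbol. Depth was estimated from the lowest FPKM of genes with 1 annotated transcript and is approximate. Alternatives were other scalings, pseudocounts of 0.1 and 0.01, FPKM limits of 0.1 and 5 or none, each library left out, a replicate block, and correction by loess, with a span of 0.5, for the GC content and length of transcripts, for which 98.7% of tested genes had a value. Figures were drawn with matplotlib 3.10.9 in Python 3.11.15.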

Additional observations from a re-analysis of the deposited data

How the results depend on the processing

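The count of 21 lower Mrp genes was 12 with a common sum that leaves out mitochondrially encoded genes and Ucp1, 3 with a common sum of all FPKM, and 4 to 19 when a library was left out, the lowest without Sox4f/f mouse 2 and with 5 without Sox4f/f mouse 1. Leaving out a library leaves its genotype with 1 mouse, which is assumed to vary like the other genotype. The count was 21 with a common median, 14 after quantile normalization, 21 after the GC and length correction, and 19 to 22 over the pseudocounts and FPKM limits. Over all genes, the shares called lower were 9.66%, 8.88% and 7.72% in that order, and 5.65% to 11.1% over the pseudocounts and limits. They were 5.78% with the sum that leaves out mitochondrially encoded genes and Ucp1, and 2.55% with the sum of all FPKM. The 49 genes without overlap became 18 with a common sum of all FPKM, beside 12.9% of all genes. The median of -0.22 became -0.02 there and ran from -0.30 to -0.14 without a library. The 11 lower genes of the other translation lists became 7 and 3 with the same 2 sums and ran from 2 to 12 without a library. Sox4 ran from -0.32 to 0.71 and was below 0 without mouse 2 labelled Sox4-MKO (-0.32) and without Sox4f/f mouse 2 (-0.07). The cause of these changes was not tested. With a replicate block, 14 Mrp genes (17.9%) and 8 other translation genes (11.8%) were lower, beside 7.28% of all genes. The replicate numbers were not shown to pair the mice, since deviations of same-numbered mice correlated with r = -0.01 over all genes and 0.16 over the Mrp genes, with 2 pairs.

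With a common sum of all FPKM, 30 of the 73 Mrp genes below 0 turned to above 0, some of them from values close to the Mrp median. Of the genes named by the rule in the methods, those that changed sign follow. With that sum the log2 fold changes turned to 0.16 in Mrps30 and Tfb1m, 0.00 in Mrpl1, Mrpl18 and Mrpl23, 0.03 in Mrpl42, Ptcd3, Mrpl45 and Mrpl44, 0.10 in Gadd45gip1, 0.12 in Mrpl48, 0.18 in Mrpl46, 0.14 in Mrpl27, 0.15 in Dap3, 0.08 in Mrpl11, 0.06 in Mrpl54, 0.13 in Mrpl22 and 0.01 in Chchd1. Without mitochondrially encoded genes and Ucp1 in the sum they were 0.01 in Dap3, 0.04 in Tfb1m and Mrpl46, 0.00 in Mrpl27 and 0.02 in Mrps30. Quantile normalization gave 0.00 in Mrpl27 and 0.01 in Mrpl46, the common median -0.01 in Mrpl43, and the GC and length correction -0.04 in Mtif2, 0.00 in Mrpl33 and -0.06 in Mrpl50. Without a library the log2 fold changes ran from -0.18 to 0.06 in Dap3, -0.33 to 0.14 in Gadd45gip1, -0.00 to 0.13 in Mrpl20, -0.21 to 0.05 in Mrpl22, -0.19 to 0.06 in Mrpl27, -0.17 to 0.24 in Mrpl33, -0.06 to 0.09 in Mrpl43, -0.20 to 0.15 in Mrpl46, -0.21 to 0.39 in Mrpl47, -0.26 to 0.08 in Mrpl48, -0.08 to 0.17 in Mrpl50, -0.05 to 0.25 in Tfam, -0.13 to 0.09 in Tfb1m and -0.03 to 0.66 in Trub2.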
